A study of Mus musculus with 15 samples.

Results

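The mouse zinc finger genes with symbols Zfp700 to Zfp999 were taken as the protein-coding rows whose symbol is Zfp, a number in that range and at most 1 further letter, such as Zfp729a. This gave 134 genes of the 45777 features in the deposited tables, and 257 other protein-coding Zfp genes carry a lower number. Expression was measured by RNA sequencing of the striatum of wild-type males of the outbred ICR stock, aged 7 weeks. Founder males received methamphetamine (METH) or saline under the skin and were mated with untreated females, and F1 mice were their sons. F2 mice were in turn sired by F1 males with untreated females. Doses were 5 mg/kg METH or 10 mL/kg saline, each given for 21 days from 6 weeks of age. The groups were F1 METH (n = 3), F1 saline (n = 4), F2 METH (n = 4) and F2 saline (n = 4). The labels name neither a dosing of the sequenced mice nor the litter or founder of any animal. Animals that share a founder would not be independent replicates of a founder's treatment. The p-values here set a group difference only against the spread between these animals.

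Most genes of this kind encode proteins whose tandem C2H2 zinc fingers, small zinc-holding folds, bind DNA. In a large subfamily the fingers follow a KRAB domain, which binds the corepressor TRIM28. TRIM28 brings the histone methyltransferase SETDB1 and other silencing factors to the bound DNA, often a transposable element. The family has grown by duplication, so many members lie side by side as closely related copies. Mouse stocks and strains are known to differ in the sequence and number of such copies.

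Total counts per library were 32805918 to 38514778 in F1 METH, 35044343 to 37659436 in F1 saline, 31563806 to 47199267 in F2 METH and 34622167 to 50573906 in F2 saline. The label names a neuronal cell type, but markers of other cells were present. The 10 genes marking spiny projection neurons, the main striatal neuron, summed to 6011 to 10905 CPM (counts per 1e+06 counts of the library, after scaling). The 7 oligodendrocyte markers summed to 6560 to 12866 CPM. The 10 cortical excitatory neuron markers summed to 158 to 682 CPM in F1 METH, 176 to 885 CPM in F1 saline, 141 to 313 CPM in F2 METH and 145 to 374 CPM in F2 saline, and 0 of them was at 0 in all libraries. The 5 endothelial markers summed to 227 to 231 CPM in F1 METH and 189 to 210 CPM in F1 saline, without overlap, and to 146 to 180 CPM in F2 METH and 147 to 192 CPM in F2 saline. The 7 astrocyte markers summed to 3461 to 5128 CPM in F1 METH and 2955 to 3534 CPM in F1 saline. Slc17a7, a glutamate transporter of cortical neurons, was above 100 CPM in 5 libraries: F1 METH 3, F1 saline 1, F1 saline 3, F2 METH 2 and F2 saline 4. In bulk tissue, fewer cells of a type and less RNA per cell cannot be told apart.

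A cluster of related members at the distal end of chromosome 2 gave the clearest joint variation between animals, described further on, and its promoters are shown because they are nearly the same sequence. RefSeq windows (GRCm38.p6, 250 bases before to 50 after a gene's start) existed for 117 of the 134 genes. Capitals in the Zfp966 window (chr2:175931051-175931350, minus strand) mark CCAAT on either strand, the core of the site bound by the general transcription factor NF-Y. Capitals in the windows of Zfp970 (chr2:177464492-177464791, plus strand) and Zfp971 (chr2:178023034-178023333, plus strand) mark bases that differ from Zfp966 when the windows are slid onto each other without gaps.
Zfp966: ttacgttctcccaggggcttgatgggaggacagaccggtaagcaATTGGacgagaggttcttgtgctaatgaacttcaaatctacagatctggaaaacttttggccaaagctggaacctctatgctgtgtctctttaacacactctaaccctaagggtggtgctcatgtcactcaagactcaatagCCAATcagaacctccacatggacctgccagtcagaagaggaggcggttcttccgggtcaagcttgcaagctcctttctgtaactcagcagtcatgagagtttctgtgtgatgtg
Zfp970: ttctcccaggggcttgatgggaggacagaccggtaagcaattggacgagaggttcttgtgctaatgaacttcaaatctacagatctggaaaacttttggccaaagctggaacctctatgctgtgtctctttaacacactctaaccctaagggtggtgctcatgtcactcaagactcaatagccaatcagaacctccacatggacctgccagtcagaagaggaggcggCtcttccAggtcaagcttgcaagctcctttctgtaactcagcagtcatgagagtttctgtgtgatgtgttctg
Zfp971: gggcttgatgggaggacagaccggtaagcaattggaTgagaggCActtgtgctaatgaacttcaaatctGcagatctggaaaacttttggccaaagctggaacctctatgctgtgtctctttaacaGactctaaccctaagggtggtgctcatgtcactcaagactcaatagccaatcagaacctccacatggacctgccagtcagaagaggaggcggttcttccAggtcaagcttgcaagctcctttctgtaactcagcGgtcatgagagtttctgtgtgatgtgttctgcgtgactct
Over 295 shared positions Zfp970 differed from Zfp966 at 2, and over 286 positions Zfp971 differed at 7. The window of Zfp967 held 0 differences in 300 bases and that of Zfp968 held 0 in 274. Zfp965 and Zfp973 each held 1 difference, in 286 and 274 bases.

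A second set, from chromosome 13, belongs to Zfp729a and its neighbour Zfp738, and is shown because Zfp729a had the smallest p of the 134 genes. Capitals mark a match, on either strand, to the motif known as the site of the transcription factors ZNF143 and THAP11, searched with 1 free base. Both windows (chr13:67637732-67638031 and chr13:67683463-67683762, minus strand) hold it.
Zfp729a: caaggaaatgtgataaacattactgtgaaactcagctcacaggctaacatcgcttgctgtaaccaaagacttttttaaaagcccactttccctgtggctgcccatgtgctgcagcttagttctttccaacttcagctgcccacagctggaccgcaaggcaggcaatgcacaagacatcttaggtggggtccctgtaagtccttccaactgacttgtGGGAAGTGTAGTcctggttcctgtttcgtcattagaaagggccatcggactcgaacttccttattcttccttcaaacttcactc
Zfp738: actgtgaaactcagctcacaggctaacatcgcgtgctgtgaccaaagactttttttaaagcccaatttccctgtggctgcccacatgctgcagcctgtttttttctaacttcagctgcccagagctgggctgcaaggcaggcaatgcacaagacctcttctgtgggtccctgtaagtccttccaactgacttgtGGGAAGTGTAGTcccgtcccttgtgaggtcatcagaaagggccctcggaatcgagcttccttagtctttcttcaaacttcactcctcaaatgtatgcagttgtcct
Of 136 windows of the 117 genes (some genes have more than 1 start), 14 held this motif, which is 10.29%, against 311 of 32851 windows over all genes (0.95%). CCAAT, whose letters can overlap the end of that motif, was in 86 of 136 windows (63.24%), against 37.41% of all windows. The shares count near copies, such as the chromosome 2 windows, separately. They rest on letter matches and were not tested. No window was given for Zfp729b.

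The proteins were described from coding sequences of the GENCODE annotation, which held 133 of the 134 genes. A zinc finger pattern was found in 124, with a median of 11 fingers and up to 30 in Zfp729b, and a KRAB A-box pattern was found in 93. The translated frame began with methionine for 132 of the 133. That of Zfp707 did not and gave 0 fingers, so its count is uncertain. Members lay on 17 chromosomes, with 26 on chromosome 7, 23 on chromosome 17, 14 each on chromosomes 8 and 13, and 13 each on chromosomes 2 and 4. Shared sequence bears on every value below: for 20 genes at least 50% of the 50-base words of their transcripts also occur in another gene, and for 29 genes the share was 0. The median was 2.85%. For each gene these words came from the annotated transcript with the longest coding sequence. For some genes that transcript holds hardly any untranslated sequence. The way reads matching several genes were counted is not given in the sources used here, so levels of genes with a high share are uncertain.

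Together the 134 genes took a small and even part of each library. Their share of counts was 0.204 to 0.221% in F1 METH and 0.215 to 0.219% in F1 saline, and 0.218 to 0.222% in F2 METH and 0.212 to 0.235% in F2 saline. Their summed TPM (a level per transcript length, as deposited) was 1184 to 1265 in F1 METH, 1230 to 1324 in F1 saline, 1344 to 1396 in F2 METH and 1296 to 1472 in F2 saline. METH and saline overlapped in both generations. TPM of the generations come from separate tables and were not compared.

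By mean TPM over the 15 libraries, 115 of the 134 genes were at 1 or above and 45 at 10 or above, with a median of 6.41. The highest was Zfp706 at 99.7 TPM, a small single-finger protein known in mouse embryonic stem cells for promoting exit from the pluripotent state. Zfp740 followed at 57.7 TPM, Zfp771 at 41.9, Zfp821 at 37.5, Zfp932 at 35.2 and Zfp871 at 28.1 TPM. Together these 6 genes made up 22.87% of the members' TPM. None of the first 4 matched the KRAB pattern, while Zfp932 and Zfp871 did. At the other end Zfp735 and Zfp936 had 0 reads in all 15 libraries, and the 11 genes too low for the fit over all libraries reached at most 0.433 CPM in any one. Zfp706 was at 183 ± 22.8 CPM in F1 METH (SD, n = 3) and 189 ± 18.1 CPM in F1 saline (n = 4), and at 160 ± 14.9 CPM in F2 METH and 164 ± 16.2 CPM in F2 saline (n = 4 each).

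In F1, the comparison of METH with saline sons of treated founders called 0 of the 123 members that passed the filter on low counts, by edgeR's quasi-likelihood test with Benjamini-Hochberg adjustment over all 18499 genes. The share called over all genes was 0.0%. DESeq2 also called 0 members. Log2 fold changes of METH over saline were positive for 59 and negative for 64, with a median of -0.0061, beside -0.0035 over all genes tested. At an unadjusted p under 0.05 there were 3 members, against 4.18% of all genes. Of these 2 were higher in METH, against 2.52% of all genes, and 1 was lower, against 1.66%. METH and saline animals did not overlap for 5 members, against 5.56% of all genes: 3 lay above (2.94% of all genes) and 2 below (2.63%). These counts do not exceed the shares over all genes. The endothelial marker sum also separated the F1 groups, higher in METH, and its part in the members' differences was not tested.

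The 3 members at an unadjusted p under 0.05 in F1 were Zfp747, Zfp977 and Zfp932. Zfp932, which in mouse embryonic stem cells is known to bind and silence endogenous retroviruses, was at 91.3, 90.5 and 88.3 CPM in F1 METH, against 86.3, 70.4, 77.4 and 82.9 CPM in F1 saline. Every METH animal was above every saline animal (log2 fold change 0.19, SE 0.08, adjusted p = 0.994), and 55.5% of its transcript words occur in other genes, mostly Gm15446. Zfp747, a KRAB zinc finger gene, was at 5.25, 5.34 and 4.12 CPM in F1 METH, against 5.71, 6.43, 6.90 and 6.47 CPM in F1 saline. It was lower in all METH animals (log2 fold change -0.37, SE 0.15, adjusted p = 0.994), and 36.9% of its transcript words occur in other genes, mostly 9130019O22Rik. Zfp977, another KRAB gene, was at 1.39, 1.27 and 1.47 CPM in F1 METH, against 1.15, 0.955, 0.872 and 0.708 CPM in F1 saline, from 27 to 49 reads per library. These groups did not overlap either (log2 fold change 0.58, SE 0.25, adjusted p = 0.994). In F2 the sign was the other one for both genes, with overlapping groups: the log2 fold change of Zfp747 was 0.18 (SE 0.15), that of Zfp977 -0.43 (SE 0.26).

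Further members with the smallest p in F1 had smaller differences or wider spread. Zfp740 was at 99.7 to 102 CPM in F1 METH and 90.7 to 98.3 CPM in F1 saline, without overlap (log2 fold change 0.11, SE 0.06). Zfp846 was at 21.4 to 23.1 CPM in F1 METH and 23.6 to 26.1 CPM in F1 saline (log2 fold change -0.14, SE 0.08), but on log2(TPM + 1) of the deposited TPM its difference was 0.19. Log2 fold changes of Zfp719 (-0.26, SE 0.12), Zfp866 (-0.16, SE 0.09) and Zfp953 (0.68, SE 0.39) came with overlapping groups. Without F1 METH 1 the value of Zfp953 was 0.37, and without F1 METH 2 it was 1.02. Zfp970 (0.50, SE 0.31) and Zfp949 (-0.43, SE 0.26) are genes of wide spread, taken up further on. That of Zfp970 was 0.17 without F1 METH 2 and 0.33 without F1 saline 4.

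In F2, the comparison of METH with saline grandsons also called 0 of 122 members (edgeR's quasi-likelihood test, Benjamini-Hochberg adjustment over 18093 genes, smallest adjusted p = 0.182), beside 0.0% of all genes, while DESeq2 called 1, Zfp729a. Log2 fold changes were positive for 51 and negative for 71, with a median of -0.025, beside -0.0020 over all genes. At an unadjusted p under 0.05 there were 7 members, against 4.77% of all genes. All 7 were lower in METH, a direction in which 2.66% of all genes passed, and 0 were higher, against 2.11%. All METH animals were below all saline animals for 5 members, against 1.52% of all genes, and above them for 1, Zfp956, against 1.10%. Of the 250 other Zfp genes tested, 13 had an unadjusted p under 0.05, of which 9 were higher in METH.

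Zfp729a (gene ID 212281, chromosome 13, 67612760 to 67637803, a gene of 27 fingers with a KRAB match) had the smallest p. It was at 21.5, 21.5, 19.5 and 22.1 CPM in F2 METH, against 45.4, 31.6, 35.5 and 38.7 CPM in F2 saline. In F1 it was at 17.5, 23.1 and 21.4 CPM in METH and at 20.2, 33.8, 18.7 and 17.5 CPM in saline. The 4 F2 saline animals and F1 saline 2 were above 31 CPM, and the other 10 animals, METH and saline alike, were between 17.5 and 23.1 CPM. The F2 log2 fold change was -0.83 (SE 0.11, adjusted p = 0.182), and DESeq2 gave -0.83 with an adjusted p of 1.7e-08. The F1 log2 fold change was -0.12 (SE 0.23). Without F1 saline 2, the animal at 33.8 CPM, it was 0.14. The difference between the generations was -0.71 (SE 0.26, adjusted p = 0.909). Over the alternatives in F2 other than DESeq2, the adjusted p ran from 0.0535 to 0.999, and the log2 fold change stayed between -0.91 and -0.72.

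The genes beside Zfp729a differed less between the F2 groups. Zfp729b, separated from Zfp729a by a gap of 3053 bases, was at 8.73 to 10.3 CPM in F2 METH and 10.4 to 11.8 CPM in F2 saline (log2 fold change -0.14, SE 0.10, adjusted p = 0.960), without overlap. Zfp738, on the other side, was at 9.48 to 10.9 CPM in F2 METH and 10.1 to 12.8 CPM in F2 saline (-0.085, SE 0.11). Zfp748, next to Zfp729b, was at 9.62 to 12.2 CPM in F2 METH and 10.3 to 12.1 CPM in F2 saline (0.010, SE 0.11). Of the transcript words of Zfp729a, 13.5% occur in other genes, most of them in Zfp738 (9.19%). For Zfp729b the share was 40.8%, mainly with Gm49345. Over the 15 libraries, with group means removed, Zfp729a had Pearson's r of 0.54 with Zfp738 (rho 0.43) and 0.39 with Zfp729b (rho 0.40). Without the 2 libraries in which Zfp729a lay farthest from its median, r was 0.25 and 0.12. Without the 2 in which Zfp729b lay farthest out, r of Zfp729a with Zfp729b was 0.38.

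**Figure D1:**
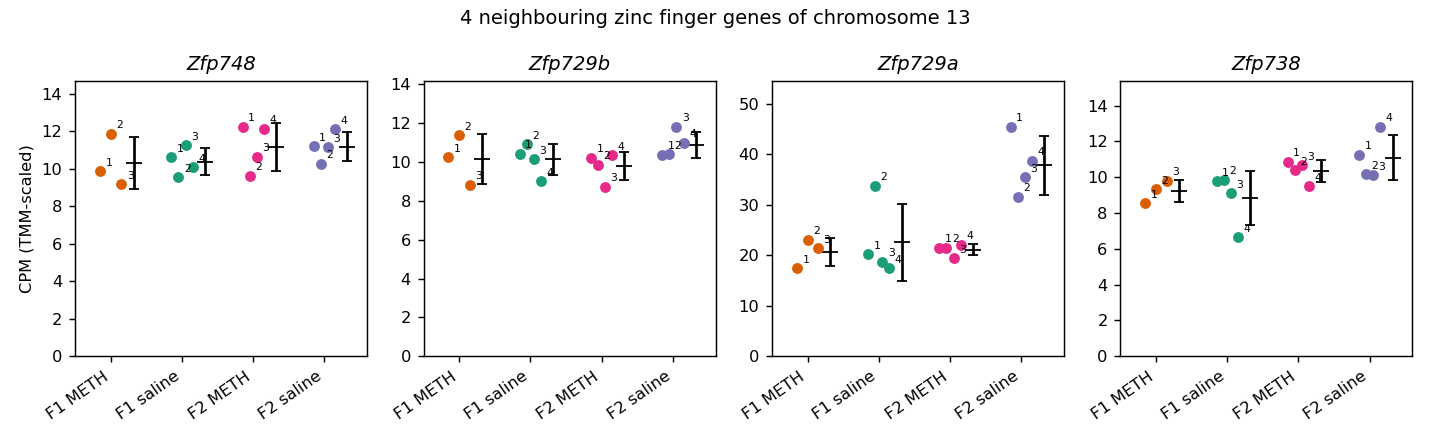
CPM of 4 genes in their order along chromosome 13, by group, with numbered points for animals and mean ± SD beside them (n = 3 for F1 METH, n = 4 otherwise). For Zfp729a the F2 saline animals sit between 31.6 and 45.4 CPM, above F2 METH at 19.5 to 22.1 CPM, while the 3 neighbours stay between 6.66 and 12.8 CPM in all animals.

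The other members with an unadjusted p under 0.05 in F2 differed less. Zfp825 was at 5.23, 4.33, 4.66 and 5.65 CPM in F2 METH, against 7.19, 6.55, 7.66 and 6.18 CPM in F2 saline, without overlap (log2 fold change -0.46, SE 0.13). Zfp971 was at 15.2, 13.7, 11.9 and 13.8 CPM in F2 METH, against 16.4, 18.2, 16.6 and 16.0 CPM in F2 saline, also without overlap (-0.28, SE 0.09). Zfp935 was at 10.5, 8.83, 8.07 and 9.29 CPM in F2 METH, against 11.1, 11.6, 11.9 and 11.2 CPM in F2 saline, and did not overlap (-0.30, SE 0.10). The adjusted p of each was 0.960. Of the transcript words, 28.7% for Zfp825 and 42.4% for Zfp971 occur in other genes. The annotated protein of Zfp935 has a KRAB match but 0 fingers, and 100% of its transcript words occur elsewhere, nearly all in Gm49359, so reads of the pair may not be told apart. Zfp966, Zfp967 and Zfp968 of the chromosome 2 cluster gave log2 fold changes of -0.35 (SE 0.13), -0.32 (SE 0.13) and -0.34 (SE 0.14) with an adjusted p of 0.960 each. They share most of the words of their annotated transcripts, so these are not separate observations.

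Members with the smallest p on the higher side in F2 did not reach an unadjusted p of 0.05. Zfp746, whose protein (also called PARIS) is known as a parkin substrate that represses PGC-1alpha, was at 27.5 to 31.5 CPM in F2 METH and 24.7 to 28.2 CPM in F2 saline (log2 fold change 0.13, SE 0.07). Zfp804a, the mouse counterpart of a schizophrenia-associated human gene, was at 27.2 to 32.7 CPM in F2 METH and 23.8 to 28.4 CPM in F2 saline (0.17, SE 0.09). Zfp956 was at 19.5 to 21.0 CPM in F2 METH and 18.4 to 19.4 CPM in F2 saline (0.13, SE 0.07). The log2 fold change of Zfp955a was 0.13 (SE 0.07). That of Zfp820, at 1.11 to 2.82 CPM in F2 METH and 0.811 to 1.65 CPM in F2 saline, was 0.62 (SE 0.31). Zfp809 and Zfp708, known to act on retroviral elements in mice, gave close group means in F2. Zfp809, which recognises the primer binding site of a murine leukaemia virus, was at 9.82 ± 1.08 CPM in F2 METH and 9.26 ± 0.85 CPM in F2 saline (SD, n = 4 each), a log2 fold change of 0.099 (SE 0.12). Zfp708 was at 2.79 ± 0.41 CPM in F2 METH and 2.62 ± 0.31 CPM in F2 saline, but 100% of its words occur in Gm28557.

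The test of whether the METH difference itself differed between F2 and F1 called 0 of 123 members (edgeR's quasi-likelihood interaction test, smallest adjusted p = 0.898), beside 0.00518% of all 19308 genes, and DESeq2 called 0. At an unadjusted p under 0.05 there were 8 members, against 4.88% of all genes. For 2 the difference was positive, against 1.72% of all genes, and for 6 negative, against 3.16%. The differences, F2 minus F1 on the log2 scale, were -1.02 (SE 0.34) for Zfp977, -1.28 (SE 0.48) for Zfp953, -0.71 (SE 0.26) for Zfp729a, 0.55 (SE 0.20) for Zfp747, 0.24 (SE 0.10) for Zfp956, -0.44 (SE 0.18) for Zfp825, -0.38 (SE 0.14) for Zfp971 and -0.23 (SE 0.10) for Zfp950. Zfp746, next in order among the positive ones, gave 0.20 (SE 0.10) and did not reach that level. For 54 of the 122 members tested in both generations (44.26%) the log2 fold change had the same sign in F1 and F2, beside 51.23% of 17838 genes.

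**Figure D2:**
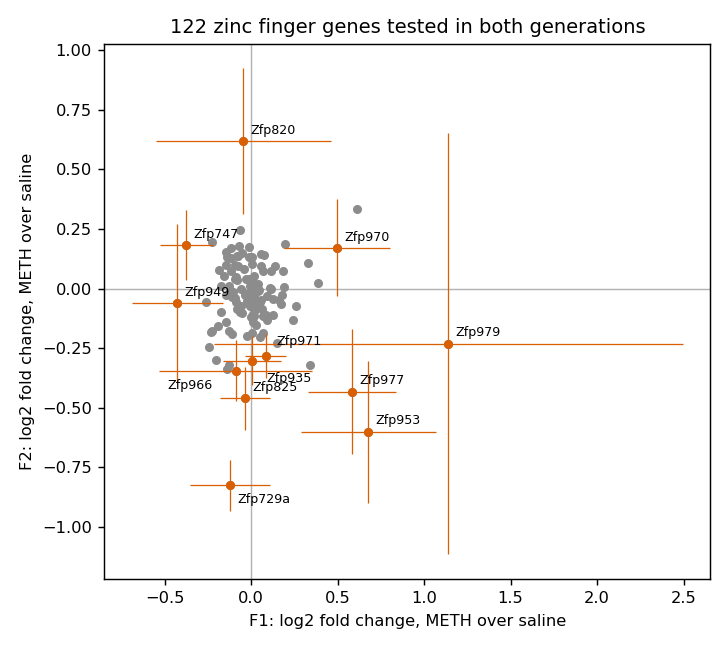
Log2 fold change of METH over saline in F1 (x axis) and F2 (y axis) for the 122 genes tested in both generations, with standard errors for 12 named genes. Most genes lie close to 0 on both axes. Zfp729a is at -0.12 in F1 and -0.83 in F2, and Zfp979 has the widest error in F1 (SE 1.36).

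Genes of KRAB corepressors and of general silencing factors were likewise not called. Of 33 corepressor and silencing genes listed, 32 were tested, and 0 passed in F1, F2 or the difference by edgeR or DESeq2. At an unadjusted p under 0.05, 1 passed in F1 (Dnmt3a, a DNA methyltransferase), against 4.18% of all genes. In F2 and in the difference 0 passed, against 4.77% and 4.88% of all genes. Trim28 was at 113 ± 2.78 CPM in F1 METH (SD, n = 3) and 107 ± 3.84 CPM in F1 saline (n = 4), a log2 fold change of 0.08 (SE 0.06). In F2 it was at 112 ± 4.63 CPM in METH and 105 ± 1.24 CPM in saline (0.11, SE 0.05, adjusted p = 0.960). Setdb1 was at 47.7 ± 1.99 CPM in F2 METH and 48.3 ± 4.15 CPM in F2 saline (-0.0031, SE 0.07).

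For a few members, animals of 1 group differed widely. Spread was taken as the SD of log2 CPM over the 15 libraries after removing the 4 group means, and called high at or above the 95th percentile of genes of like level. Of 123 members 8 were high (6.5%), against 5.02% of all genes, a share near that of all genes. Of 251 other Zfp genes 1 was high (0.398%). Relative to the median gene of like level, the members' SD ratio had a median of 0.94 and was under 1 for 69 members. The other Zfp genes had a median ratio of 0.87. In F1 taken alone 7 of 123 members were high and in F2 alone 5, against 5.02% of all genes in each, shares near the background. The 4 high in both were Zfp949, Zfp951, Zfp970 and Zfp979, and 2.21% of all genes were high in both. Among members with a mean of at least 1 CPM, 2 of 117 ranged at least 4-fold between animals (Zfp951 and Zfp820), against 6.09% of all such genes, and 26 ranged at least 2-fold (22.22%), against 30.0%.

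**Figure D3:**
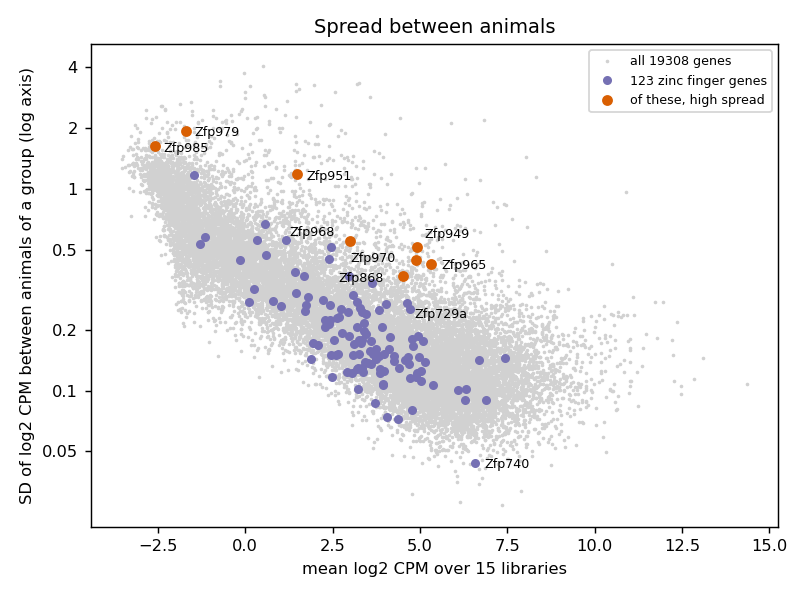
SD of log2 CPM between animals of a group (y axis, log scale) against mean log2 CPM (x axis) for all 19308 genes (grey) and 123 zinc finger genes (purple), with the 8 of high spread in orange. Most of the zinc finger genes lie within the grey cloud, Zfp949, Zfp951 and the chromosome 2 genes lie at its upper side, and Zfp740 lies at its lower edge.

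Zfp951 had the highest ratio, an SD 4.16 times that of the median gene of like level. It was at 3.65, 4.74 and 3.13 CPM in F1 METH and 3.68, 3.68, 0.502 and 2.23 CPM in F1 saline. In F2 it was at 0.581, 6.13, 5.44 and 3.67 CPM in METH and 3.76, 5.22, 2.80 and 0.979 CPM in saline. F1 saline 3, F2 METH 1 and F2 saline 4 were below 1 CPM (19 to 35 reads), and the other animals were at 2.23 CPM or above. Only 0.84% of its transcript words occur in other genes. The highest animal was 12.2 times the lowest, and both treatments held low and high animals.

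Zfp949, an 11-finger KRAB gene whose transcript shares 0% of its words with others, stood at 2 levels. It was at 28.3, 24.9 and 25.6 CPM in F1 METH and 26.2, 29.2, 58.1 and 28.5 CPM in F1 saline. In F2 it was at 25.5, 52.4, 24.6 and 24.7 CPM in METH and 24.8, 25.2, 25.0 and 59.4 CPM in saline. The 3 animals above 50 CPM (F1 saline 3, F2 METH 2 and F2 saline 4) came from 3 different groups, and the other 12 stood between 24.6 and 29.2 CPM. Those 3 libraries were among the 5 with Slc17a7 above 100 CPM, where it was 529, 130 and 183 CPM. The other 2, F1 METH 3 and F1 saline 1, with Slc17a7 at 394 and 320 CPM, had Zfp949 at 25.6 and 26.2 CPM. With the cortical marker mean as a covariate the SD ratio was 3.41, beside 3.77 without it, and it was 0.42 without all 5 libraries, which hold the 3 high animals, so that value had to be low. The part of cortical tissue in these levels was not tested further. Leaving out F1 saline 3 alone moved the F1 log2 fold change of Zfp949 to -0.089, against -0.43 with it.

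Zfp868, a 9-finger gene on chromosome 8, was lowest in F2 saline 4 at 11.7 CPM, then F2 METH 1 at 17.5, F1 METH 2 at 18.7 and F1 saline 1 at 20.1 CPM. The other 11 animals were at 23.7 to 28.1 CPM. Of the transcript words of Zfp868, 11.8% occur in Zfp869. In the low animals, in the same order, Zfp869 was at 33.7, 31.2, 34.0 and 29.0 CPM, against 24.7 to 30.9 CPM in the other 11. Whether reads were divided differently between these genes was not tested. Zfp939 was at 9.62 to 16.9 CPM in F1 METH, 8.76 to 16.1 CPM in F1 saline, 8.79 to 14.0 CPM in F2 METH and 10.0 to 16.2 CPM in F2 saline, with an SD ratio of 2.15. Zfp941 (ratio 1.87) was at 23.2 to 26.8 CPM in F1 METH, 22.1 to 36.2 CPM in F1 saline, 25.2 to 30.9 CPM in F2 METH and 19.1 to 33.5 CPM in F2 saline. Zfp772 (ratio 1.84) was at 7.36 to 8.65 CPM in F1 METH, 6.76 to 11.6 CPM in F1 saline, 4.20 to 10.3 CPM in F2 METH and 5.87 to 9.0 CPM in F2 saline. In each of these genes METH and saline animals overlapped. Members just under the threshold for high spread included Zfp939 and Zfp729a (ratio 1.99), both high at the 90th percentile.

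The steadiest members differed little between animals. Zfp740, at 99.7 to 102 CPM in F1 METH, 90.7 to 98.3 CPM in F1 saline, 92.4 to 98.4 CPM in F2 METH and 92.9 to 98.7 CPM in F2 saline, had a ratio of 0.38 and a range of 1.12-fold over all 15 animals. Csad overlaps it in the annotation. Zfp874a (ratio 0.41), Zfp956 (0.45) and Zfp955a (0.47) followed, though 52.0% of the transcript words of Zfp955a occur in Zfp955b.

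**Figure D4:**
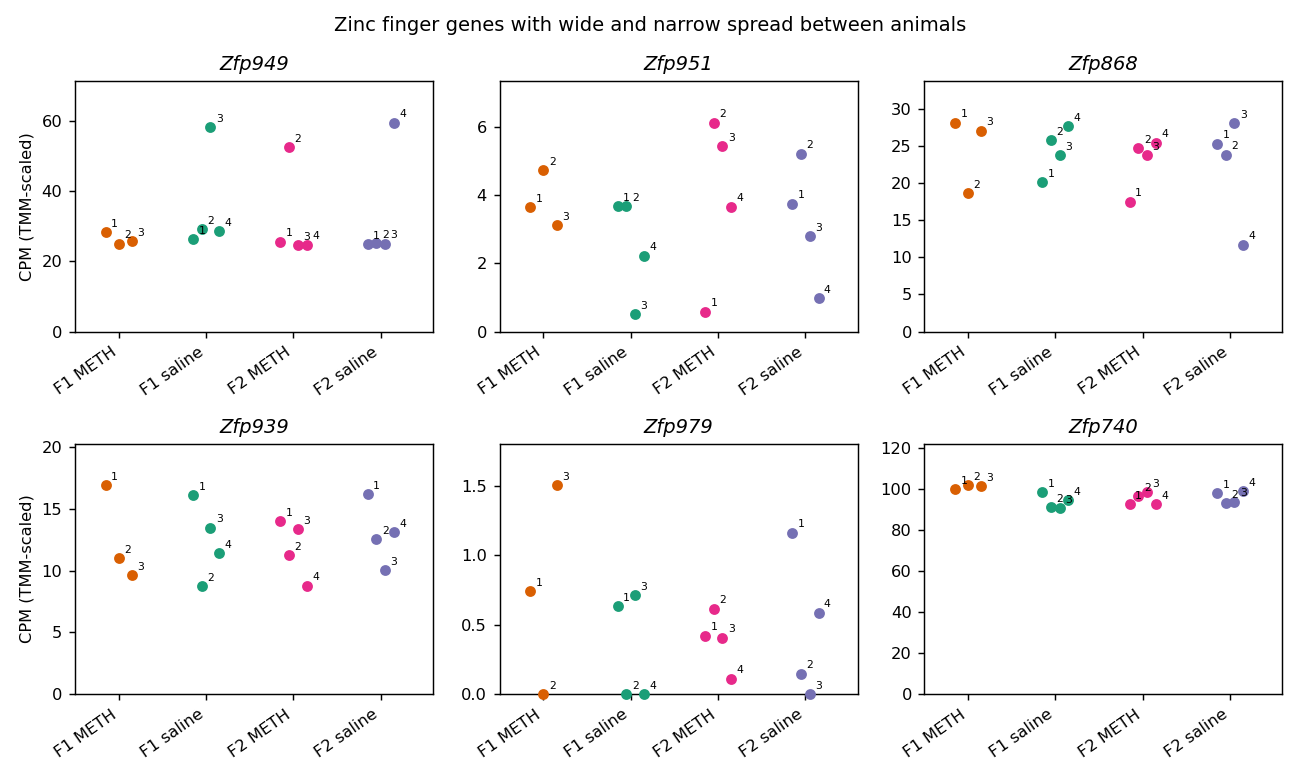
CPM of 6 genes in each animal by group, with numbers for the replicate; 5 have a wide spread and Zfp740 the narrowest ratio. Zfp949 stands above 50 CPM in 3 animals, Zfp951 below 1 CPM in 3, and Zfp979 at 0 in 4.

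The chromosome 2 cluster gave joint variation. Zfp965, at 25.0, 48.5 and 44.6 CPM in F1 METH and 49.3, 19.3, 49.7 and 32.7 CPM in F1 saline, was at 40.0 to 46.5 CPM in F2 METH and 35.9 to 50.1 CPM in F2 saline. Zfp966, an 11-finger KRAB gene, was at 2.75, 6.40 and 4.96 CPM in F1 METH and 6.70, 2.36, 7.88 and 3.17 CPM in F1 saline, and at 5.07 to 6.84 CPM in F2 METH and 6.60 to 7.80 CPM in F2 saline. F1 METH 1, F1 saline 2 and F1 saline 4 were the 3 lowest animals for both genes, and they came from both treatments. Zfp968 was at 4.98, 10.4 and 3.82 CPM in F1 METH and 8.05, 4.16, 12.3 and 3.80 CPM in F1 saline, so F1 METH 3 was low as well. Zfp970 was at 28.8, 51.6 and 29.4 CPM in F1 METH and 31.2, 19.5, 37.0 and 16.4 CPM in F1 saline. It was at 29.8 to 33.8 CPM in F2 METH and at 20.8, 20.0, 42.1 and 32.2 CPM in F2 saline.

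Over the 15 libraries, with group means removed, the 10 pairs among Zfp965, Zfp966, Zfp967, Zfp968 and Zfp970 had Pearson's r of 0.63 to 0.99. Without the 2 libraries farthest out for the first gene of each pair, in the order listed, the 10 pairs had r of 0.61 to 0.99. Zfp966 and Zfp967 had r of 0.99, Spearman's rho of 0.97 and r of 0.99 without those 2 libraries. Zfp965 and Zfp968 had r of 0.61 that way, but 0.48 without the 2 libraries farthest out for Zfp968. Except for Zfp970, the spread of these genes lay mostly in F1. In F1 alone the SD ratios of Zfp965, Zfp966, Zfp967, Zfp968 and Zfp970 were 4.76, 2.64, 2.27, 3.84 and 3.79. In F2 alone they were 1.62, 0.79, 0.81, 1.22 and 2.91. Pearson's r was not taken in each generation alone. The r values are descriptions, since the genes share sequence: 100% of the words of Zfp967 and of Zfp968 occur in Zfp966, and 38.5% of those of Zfp970 do. The annotated transcripts of Zfp965, Zfp967, Zfp968, Zfp970 and Zfp971 hold little beyond the coding sequence. That of Zfp967 has 1458 bases, 1455 of them coding, against 2939 bases with 1455 coding for Zfp966. Word shares of those 5 genes therefore say little of any untranslated parts. Zfp971, with a promoter differing at 7 positions and 20.8% of its words in Zfp966, had r of 0.01 to 0.34 with the 5. Zfp973 has a promoter differing at 1 position and holds 100% of the words of Zfp965. Its r was 0.34 with Zfp970, 0.52 with Zfp968 and 0.72 to 0.82 with the other 3. The genes differ both in shared words and in promoter bases, and the part of either in r was not tested. In the 3 low animals Slc17a7 was at 30.7, 97.4 and 9.41 CPM. In F2 saline 1 and 2, where Zfp966 was at 6.60 and 7.50 CPM, Slc17a7 was at 10.5 and 9.94 CPM. Slc17a7 was at 394, 320 and 529 CPM in F1 METH 3, F1 saline 1 and F1 saline 3. Zfp966 was there at 4.96, 6.70 and 7.88 CPM. In F1 METH 2 Slc17a7 was at 23.9 CPM and Zfp966 at 6.40 CPM. The part of cortical tissue in the levels of Zfp966 was not tested. With the cortical covariate the SD ratio was 3.33 for Zfp965, 3.12 for Zfp970, 2.93 for Zfp968 and 1.70 for Zfp966, beside 3.44, 3.28, 2.74 and 1.82 without it. Without the 5 libraries with Slc17a7 above 100 CPM it was 3.32 for Zfp965, 3.28 for Zfp970, 1.66 for Zfp968, which was then no longer high, and 1.39 for Zfp966.

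**Figure D5:**
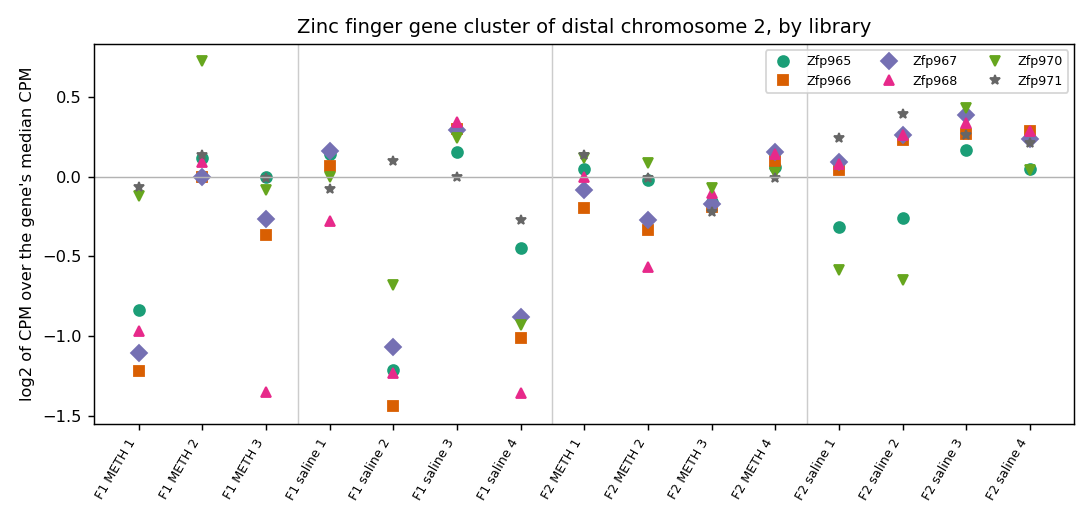
Log2 of CPM over each gene's median CPM (y axis) for 6 genes of distal chromosome 2 in the 15 libraries (x axis), with vertical lines between groups. Zfp965, Zfp966, Zfp967 and Zfp968 are low together in F1 METH 1, F1 saline 2 and F1 saline 4, where Zfp966 was at 2.75, 2.36 and 3.17 CPM, while Zfp971 stays near its median in all libraries.

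Some lowly expressed neighbours on chromosome 4 varied together and others did not: over all neighbour pairs there, r ran from -0.62 (Zfp982 and Zfp985) to 0.95 (Zfp979 and Zfp984). These genes share words with others, 57.4% for Zfp984 and 23.6% for Zfp979. Zfp979, at 0.742, 0 and 1.5 CPM in F1 METH and 0.632, 0, 0.714 and 0 CPM in F1 saline, had 0.111 to 0.616 CPM in F2 METH and 1.16, 0.148, 0 and 0.587 CPM in F2 saline. Zfp984 was at 0.881 to 2.1 CPM in F1 METH and 0.734 to 1.59 CPM in F1 saline. Its r with Zfp979 was 0.95 (rho 0.96, r of 0.94 without the 2 libraries farthest out for Zfp979), with 0% of words shared between these 2. Zfp985 had r of 0.86 with Zfp979 and reached at most 21 reads, and Zfp979 at most 50 reads, so counting error is large in these values. The 4 animals with 0 reads of Zfp979 were F1 METH 2, F1 saline 2, F1 saline 4 and F2 saline 3.

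Across the family, neighbours under 200000 bases apart formed 59 pairs with a median r of 0.20, of which 14 (23.73%) had r of at least 0.5. Over 6654 pairs on different chromosomes the median r was 0.04 and 8.61% had r of at least 0.5. Of the neighbour pairs 39 shared under 1% of words, with a median r of 0.13, and 20 shared at least 1%, with a median of 0.31; 7 of each had r of at least 0.5. Libraries and depth are common to all pairs.

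Animal numbers recur in F1 and F2, and libraries of equal number were compared with those of different number. Across tested members the correlation of group-centred log2 CPM was -0.22 and 0.33 for the 2 METH pairs of equal number, against -0.56 to 0.63 over 10 METH pairs of different number. It was -0.60 to 0.44 over the 4 saline pairs of equal number, against -0.48 to 0.59 over 12 saline pairs of different number. The labels do not say whether a number marks descent.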

How the data were processed

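Striatal RNA of 15 mice was analysed. The deposited tables, 1 per generation, hold raw read counts, FPKM and TPM per gene, per the file headers. The FPKM values deposited by the authors were not used, and the deposited TPM served for levels and as an alternative. The submitters' processing notes name HISAT2 2.1.0, StringTie 2.1.3b, Trimmomatic, bcl2fastq 2.20.0 and build mm10. Strandedness is not given in the sources used here, nor is the order of steps. Positions came from RefSeq on GRCm38.p6, the build mm10. The submitters' totals differ between libraries, and the counts were tested as deposited.

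Counts were tested with edgeR 4.0.16 (R 4.3.3; TMM, filterByExpr with a minimum count of 10, glmQLFit, Benjamini-Hochberg over all genes, threshold 0.05), in each generation alone and as an interaction over 15 libraries. CPM and log2 CPM (prior count 2) used TMM-scaled totals. DESeq2 1.42.0, limma 3.58.1 and a replicate block were alternatives. Same-numbered METH and saline samples had correlations of -0.0076 to 0.352 in F1 and -0.071 to 0.037 in F2. Samples of different number had -0.32 to 0.19 in F1 and -0.085 to 0.089 in F2. So few pairs cannot settle whether the numbers pair the animals, and the main tests did not pair them. Spread was compared in 10 classes of level. Of 21 replicate pairs 0 agreed within sampling noise. The genes and lists were chosen with earlier results of these data known. The rule named Zfp729a, Zfp729b and their neighbours, the members with the smallest p, the widest and narrowest spread, and the highest TPM (37 genes). Zfp708, Zfp809, Zfp869, Zfp950, Zfp967, Zfp973, Zfp982 and Zfp984 were added after values were seen, Zfp708 and Zfp809 for known roles. Finger and KRAB patterns were searched in GENCODE translations, and the steps were tested on simulated data. Without strand, reads of overlapping genes cannot be told apart. Figures used matplotlib 3.10.9.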

Additional observations from a re-analysis of the deposited data

Results flagged for a closer look

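In 111 groups of 4 animals, those of the 37 genes named by the rule, 7 held an animal far from the others. Chance flags about 1 in 20 groups, but some of these genes were named for their wide spread, so the count cannot be read against that rate. Zfp949 had 3: F1 saline 3 at 58.1 CPM against 26.2 to 29.2 CPM in the others, F2 METH 2 at 52.4 CPM against 24.6 to 25.5 CPM, and F2 saline 4 at 59.4 CPM against 24.8 to 25.2 CPM. Zfp729a had F1 saline 2 at 33.8 CPM against 17.5 to 20.2 CPM. Zfp771 had F1 saline 4 at 45.5 CPM against 35.6 to 36.7 CPM. Zfp935 had F1 saline 3 lowest at 8.04 CPM against 10.4 to 10.5 CPM. Zfp953 had F2 METH 1 at 1.03 CPM against 0.679 to 0.723 CPM.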

How the results depend on the processing

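The count of members past the threshold was 0 in F1, F2 and the interaction under every alternative run except DESeq2 in F2, which called 1, Zfp729a (log2 fold change -0.83). A fit with a replicate block called 0 in each, with 2, 6 and 7 members at an unadjusted p under 0.05 in F1, F2 and the interaction. Whether the numbers pair the animals was not settled. Leaving out 1 library at a time gave 0 called in each, and 0 to 4, 5 to 11 and 5 to 9 at an unadjusted p under 0.05. The F1 count of 3 was 1 without F1 METH 3, 0 without F1 saline 2, 1 without F1 saline 3 and 1 by DESeq2, the F2 count of 7 was 11 without F2 METH 1, and the interaction count of 8 was 5 without F1 saline 3. The count of high-spread members was 8, and was 10 at the 90th percentile, 10 with the cortical covariate (all 8 plus Zfp729a and Zfp939), 5 on log2(TPM + 1) and 5 with a mean CPM of at least 1 (5 of the 8 each). It was 5 by the median absolute deviation and, chosen after seeing the data, 5 without the libraries with Slc17a7 above 100 CPM, and 4 of the 8 remained in each. It was 7 to 8 with 1 library left out. The count ranging at least 4-fold was 2, 26 at 2-fold, 0 with a mean CPM of at least 5, 1 without the Slc17a7-rich libraries and 1 to 2 with 1 library left out (1 without F1 METH 3). Log2 fold changes in F1 turned for 3 genes: Zfp729a was 0.028 on log2(TPM + 1), 0.036 on log2(TPM + 0.1) and -0.22 to 0.14 with 1 library left out, Zfp729b was -0.042, -0.049, -0.048 with the block, -0.0023 with the cortical covariate and -0.079 to 0.099 with 1 library left out, and Zfp846 was 0.19 and 0.21 on the TPM scales. The cause was not tested.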
